A study of Mus musculus with 66 samples.

Results

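Ageing of the cerebellum under caloric restriction was followed from 16 to 24 months of age in 15 male and female C57BL/6 mice, out of 66 mice in the series. The members were chosen by the diet, sex and age that the labels give for each mouse. The old group held 4 females of 703 to 736 days and 3 males that were all 673 days old, and the middle-aged group held 4 females of 485 to 499 days and 4 males of 474 to 495 days. The old males were thus younger than the old females, so the age step differs between the sexes. All 15 mice had eaten regular feed freely up to 13 weeks of age, were then given 90% of that amount as fortified feed for 1 week and 75% for 1 week, and stayed at 60% from then on. The mice came from one breeding colony, carried no engineered allele and were housed singly. Another 3 restricted mice of these ages were left out because their arrays correlated poorly with the others, with median correlations between 0.695 and 0.822, which leaves 15 of 18. Mice are numbered within their sex and age as they were before these 3 were left out, so the numbers in a group can have gaps.

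Caloric restriction lowers energy intake without malnutrition and is the best known dietary treatment that prolongs the life of rodents. Nutrient-sensing pathways, among them insulin signalling, mTOR and AMPK, adjust protein synthesis, mitochondrial metabolism and autophagy to the supply of energy. The cerebellum coordinates movement. It is made up chiefly of small granule cells, with Purkinje cells as its output neurons and Bergmann glia at their side, and loss or shrinkage of Purkinje cells is a known feature of its ageing. The comparison asks which transcripts differ between late middle age and old age when the diet is held at the restricted level.

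The values are from 1 filter per mouse, with 8448 cDNA probes spotted on nylon. The sample titles mark this filter with the letter B, and the study measured more genes than these probes cover. Genes that only other probes of the study held are not seen here. A Z score gives the signal of a probe relative to all probes on that filter, with a mean of 0 and an SD of 1 per filter. Differences below are in these Z units and have no equivalent as a fold change. The 15 arrays had median correlations with each other of 0.922 to 0.976, and the 3 lowest (0.922, 0.933 and 0.943) were the 3 mice of the fifth and last set of array numbers, of which 2 were middle-aged and 1 was old. The probes do not mark the tissue well. The Purkinje gene Car8 had a mean Z score of 0.841 over 63 arrays, the only granule cell marker (Nfix) and both oligodendrocyte markers (Gpr37 and Car2) lay below 0, and for 561 genes with several probes the mean Z scores of a gene's probes correlated by only 0.114. Nor did the sex-linked probes follow the labelled sex. Xist, which is made from the inactive X chromosome of females, had Z scores of -1.31 to -0.71 in 33 females and -1.39 to -0.67 in 30 males, and the Y-linked gene Uty had -1.31 to -0.50 in females and -1.03 to -0.46 in males. Whether these probes detect their named genes, or whether names and probe numbers are matched correctly, was not tested. Every gene name below therefore stands for the probe as annotated. Whole tissue was measured, so fewer cells of a type and less RNA per cell cannot be told apart.

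Between 16 and 24 months no transcript measured on this filter in the restricted cerebellum passed the test. Among the 4106 probes with a mean Z score above 0, limma called 0 (0%) at an adjusted p under 0.05, with a smallest adjusted p of 0.997, and 52 probes (1.27%) had an unadjusted p under 0.05. Of these 52, 14 were higher (0.341% of the probes tested) and 38 were lower (0.925%) in the old mice. The count of 52 was 27 and 32 without the second and the third old male, and 87, 101 and 109 without the third middle-aged female, the fourth middle-aged male and the fourth old female. The differences were small. Their SD over probes was 0.0669 Z, 5 probes differed by more than 0.25 Z, and 0 differed by more than 0.5 Z. The median half-width of a probe's 95% interval was 0.168 Z, and the interval lay within 0.25 Z of 0 for 2922 probes (71.2%) and within 0.5 Z of 0 for 4089 probes (99.6%). Differences of more than 0.5 Z were thus outside the interval for nearly all probes. No probe separated the ages in every mouse: 0 probes had all 7 old mice above, or all 7 below, all 8 middle-aged mice. The mice of a group were separate animals, so the error holds both animal and hybridization differences.

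The genes with the smallest unadjusted p among the probes lower in old mice include genes of cell division, transcription, membrane traffic and signalling. None of the genes passed the adjustment. Cenpi encodes a kinetochore protein. Its Z scores were 0.22, 0.12, 0.22 and 0.18 in the middle-aged females, 0.14, 0.15, 0.28 and 0.06 in the middle-aged males, -0.03, -0.12, 0.17 and -0.13 in the old females, and 0.12, 0.02 and 0.08 in the old males. The ages overlapped, 4 of the 7 old mice lying below every middle-aged mouse, and the difference was -0.148 (SE 0.0557, unadjusted p = 0.0101). Mad2l1bp, whose product switches off the spindle checkpoint, had a Z score of 0.63 to 1.03 (median 0.705) in middle-aged mice and 0.39 to 0.81 (median 0.64) in old mice, a difference of -0.173 (SE 0.0708). The middle-aged female and male of array set 5 had 1.00 and 1.03, the other middle-aged females 0.63 to 0.65 and the other males 0.69 to 0.73. Cdk9, the kinase that releases paused RNA polymerase II, ranged from 0.17 to 0.48 and from -0.09 to 0.41, and differed by -0.170 (SE 0.0718). Stag3, a cohesin subunit of meiosis, differed by -0.266 (SE 0.111), but this value rests on 1 mouse. The fifth middle-aged female had a Z score of 1.84 while the other 3 had 0.23, 0.31 and 0.19, and without the restricted mice of array set 5 the difference was -0.0583. Among the 47 kept probes of the cell cycle list, 5 had an unadjusted p under 0.05, all lower in old mice. Over all kept probes 1.27% had such a p, and 0.925% were lower with such a p. Yet of the 47 probes of the list 26 were higher and 21 lower, with a median of 0.0100.

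**Figure D1:**
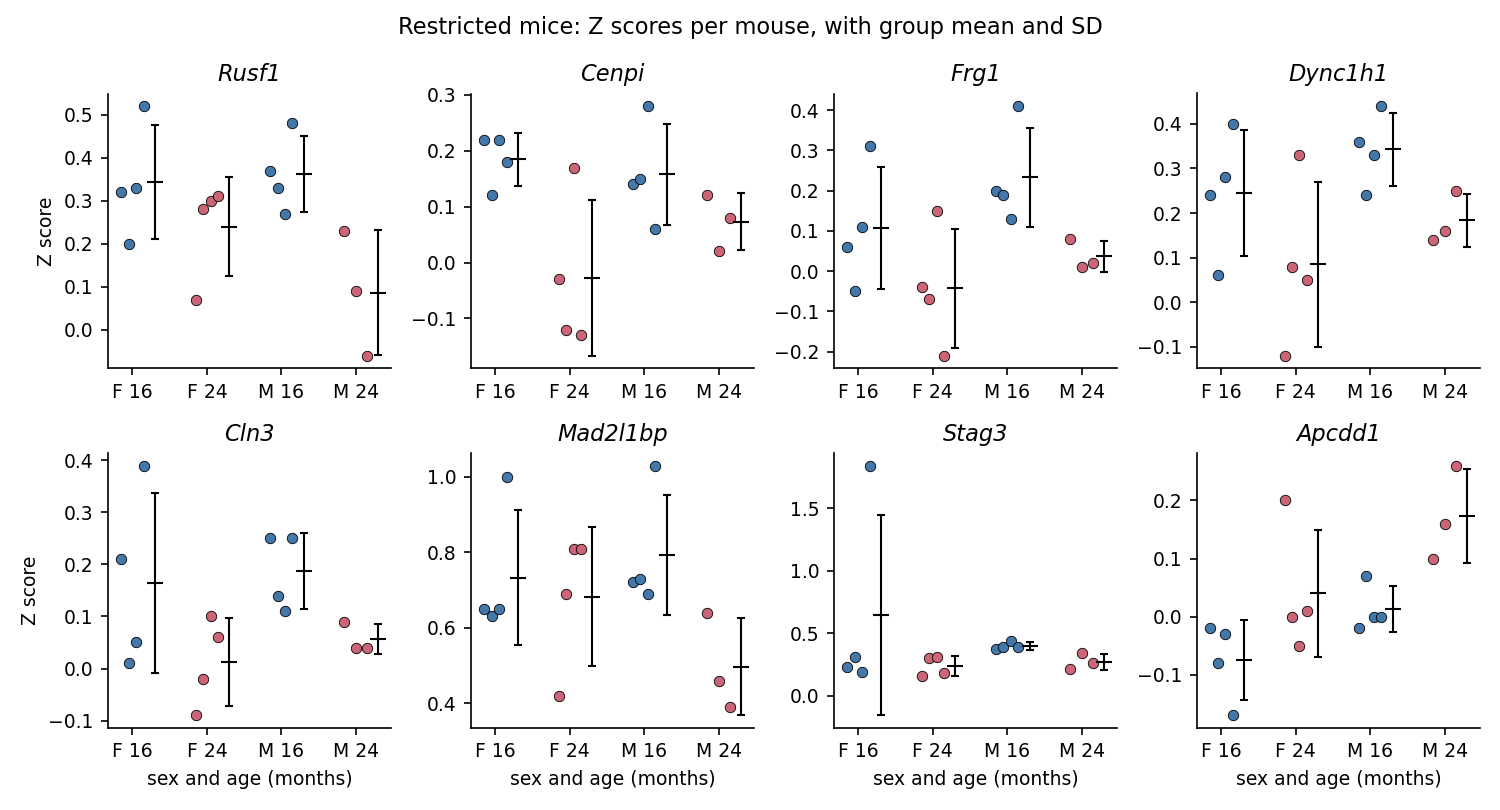
Z scores (y axis) of 8 genes in each restricted mouse, by sex (F or M) and age in months (x axis), with the group mean and SD beside the points. The ages overlap in every panel, and the difference of Stag3 comes from the one female of 16 months at 1.84.

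Genes of transport and membranes were next. Dync1h1, the heavy chain of the cytoplasmic dynein motor, had Z scores of 0.24, 0.06, 0.28 and 0.40 in middle-aged females, 0.36, 0.24, 0.33 and 0.44 in middle-aged males, -0.12, 0.08, 0.33 and 0.05 in old females, and 0.14, 0.16 and 0.25 in old males. It differed by -0.160 (SE 0.0613, unadjusted p = 0.0118), by the same amount in both sexes (-0.160 and -0.159). Exoc8, a subunit of the exocyst that tethers secretory vesicles, had the larger difference, -0.257 (SE 0.108), with values of 0.00 to 0.46 in middle-aged and -0.35 to 0.27 in old mice. Wdr35, which takes part in transport along cilia, differed by -0.159 (SE 0.0716). The lysosomal membrane protein gene Cln3, mutated in juvenile neuronal ceroid lipofuscinosis, differed by -0.142 (SE 0.0579), with old mice between -0.09 and 0.10 and middle-aged mice between 0.01 and 0.39. In all 4 genes the ages overlapped. The lists they belong to held members on both sides of 0. Of 63 kept probes for vesicle and membrane trafficking 37 were higher and 26 lower (median 0.0125), and of 47 for the cytoskeleton, motors and cilia 22 were higher and 25 lower (median -0.00542). The list of Cln3, lysosome and autophagy genes, is given with protein turnover.

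The remaining genes of this group include genes of the nucleus and of signalling, and Rusf1, which is assigned to neither here. Rusf1 had the smallest p of all named genes (0.00488), with a difference of -0.189 (SE 0.0645). Its old males stood at 0.23, 0.09 and -0.06, its old females at 0.07, 0.28, 0.30 and 0.31, and the middle-aged mice between 0.20 and 0.52, so that 3 of 7 old mice lay below every middle-aged mouse. Tmpo, a protein of the nuclear lamina, differed by -0.179 (SE 0.0747), and Frg1, an RNA-associated nuclear protein, by -0.173 (SE 0.0652). Plcg2, a phospholipase of immune cell signalling, differed by -0.125 (SE 0.0523), and here 5 of 7 old mice lay below every middle-aged mouse. In all 12 genes both sexes had a negative difference, which the choice by the mean of both sexes favours.

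The 12 genes named among those higher in old mice had weaker tests still: 2 had an unadjusted p under 0.05 and the other 10 went up to 0.0763. Apcdd1, a membrane inhibitor of Wnt signalling, had Z scores of -0.02, -0.08, -0.03 and -0.17 in middle-aged females, -0.02, 0.07, 0.00 and 0.00 in middle-aged males, 0.20, 0.00, -0.05 and 0.01 in old females, and 0.10, 0.16 and 0.26 in old males. The 3 old males and 1 old female lay above every middle-aged mouse, and the difference was 0.138 (SE 0.0603, unadjusted p = 0.0261). Dcxr, a reductase of carbonyl compounds and xylulose, differed by 0.106 (SE 0.0517, unadjusted p = 0.0448). DNA maintenance genes came next, with Fanca of the Fanconi anaemia pathway at 0.172 (SE 0.0867) and Pole2, a subunit of DNA polymerase epsilon, at 0.185 (SE 0.0972). The interferon-induced membrane protein gene Ifitm2 ranged from 1.16 to 1.65 in middle-aged and from 1.49 to 1.83 in old mice, a difference of 0.166 (SE 0.0837, unadjusted p = 0.0519). Ubiquitin ligase parts were Fbxo15 (0.124), Zyg11b (0.173) and Ttc3 (0.146). The others were the actin-binding Ipp (0.153), Erdr1 (0.110), the zinc finger gene Zfp952 (0.0996) and the p53 target Triap1 (0.138). Their intervals all included 0 apart from those of Apcdd1 and Dcxr.

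**Figure D2:**
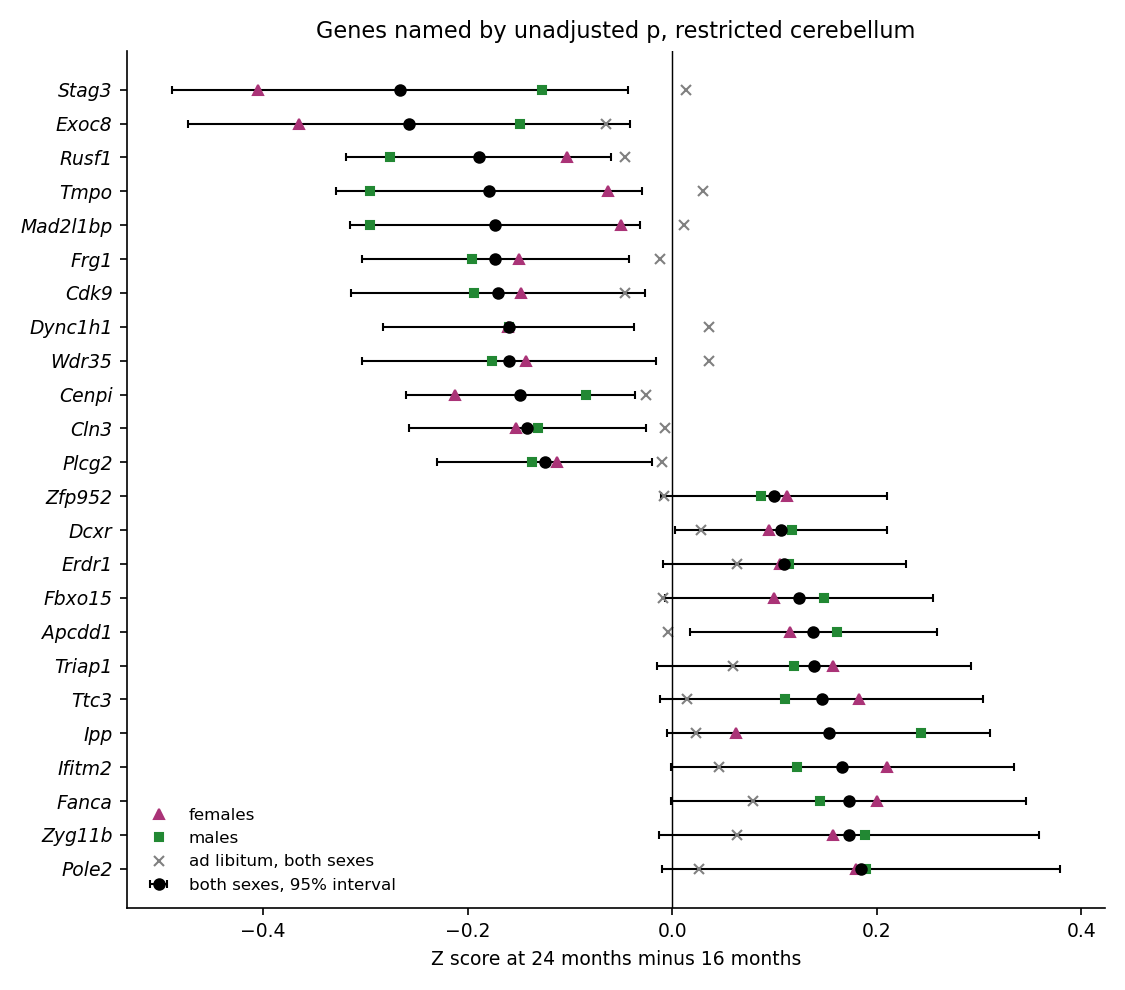
Difference in Z score between 24 and 16 months (x axis) for the 24 genes named by their unadjusted p (y axis), in restricted mice of both sexes with the 95% interval, in females, in males and in ad libitum mice. The lowest bound of a restricted interval is -0.489, that of Stag3, and the ad libitum values of the same genes lie between -0.0648 and 0.0790.

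The study selected genes by a Z-ratio of 1.5 or more in either direction with an unadjusted p under 0.05. Applied with the p of limma, and without the analysis of variance that followed in the study, this step was met by 37 probes (0.901% of those tested), 9 higher and 28 lower. The direction of this split depended on the processing. From 24.3% in the main fit it went to 46.3% when only the 15 restricted mice were fitted and 48.9% with position means removed. It was 78.4% of again 37 probes with run and position means removed, and 94.8% with the 3 poorly correlated arrays kept. The Z-ratio divides the difference by the SD of all differences, and 1.5 corresponded here to 0.131 Z. With 1 symbol each, 20 of the 37 could be named as a gene. Besides those above they included Bcl2l1, an inhibitor of apoptosis, with Z scores of 0.29 to 0.42 in middle-aged mice and 0.35, 0.10 and 0.10 in old males and 0.31, 0.19, 0.31 and 0.09 in old females. It differed by -0.151 (SE 0.0694). The histone methyltransferase gene Dot1l (-0.143), the RNA-binding protein gene Celf3 (-0.169), the integrin gene Itgb7 (-0.170), the kinase gene Rps6ka3 (-0.149) and the ribosomal protein gene Rpl4 (-0.170) met the criteria as well. Their unadjusted p values were between 0.0311 and 0.0443, and their adjusted p was 0.997. The count depended on single mice: it was 81 without the fourth middle-aged male, 76 without the fourth old female, 60 and 61 without the third and the fourth middle-aged female, and 23 and 24 without the second and the third old male.

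The differences followed the numbering of the probes on the filter. Probe numbers form 384 runs of 22, and the runs held 48.4% of the sum of squares of the differences, where 9.33% is their share of the degrees of freedom. The position within a run held 8.96% against 0.512%. In the first of 4 equal blocks of 96 runs the mean difference was -0.0177 and 40.4% of probes were higher in old mice, whereas in the third and the fourth block the means were 0.0309 and 0.0307 and 72.7% and 71.3% were higher. Of the 38 lower probes, 20 lay in the first block and 13 at position 10 of a run, and 20 of the 52 probes shared their run with another of the 52. The named genes follow the same layout. Of the 12 lower genes 9 lay in the first block, and Cenpi and Cdk9 were neighbours on the filter. With the run and position means removed from each array, 62 probes had an unadjusted p under 0.05 and 61.3% of them were higher, where 26.9% of the 52 were. With position means alone removed the share was 44.3%. With run means alone removed it was 18.2% of 33 probes. With run and position means both removed, the difference of Cln3 was -0.0249 and that of Mad2l1bp -0.0469. That of Exoc8 was -0.200 and that of Apcdd1 0.0468. How far the layout accounts for each gene was not tested.

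**Figure D3:**
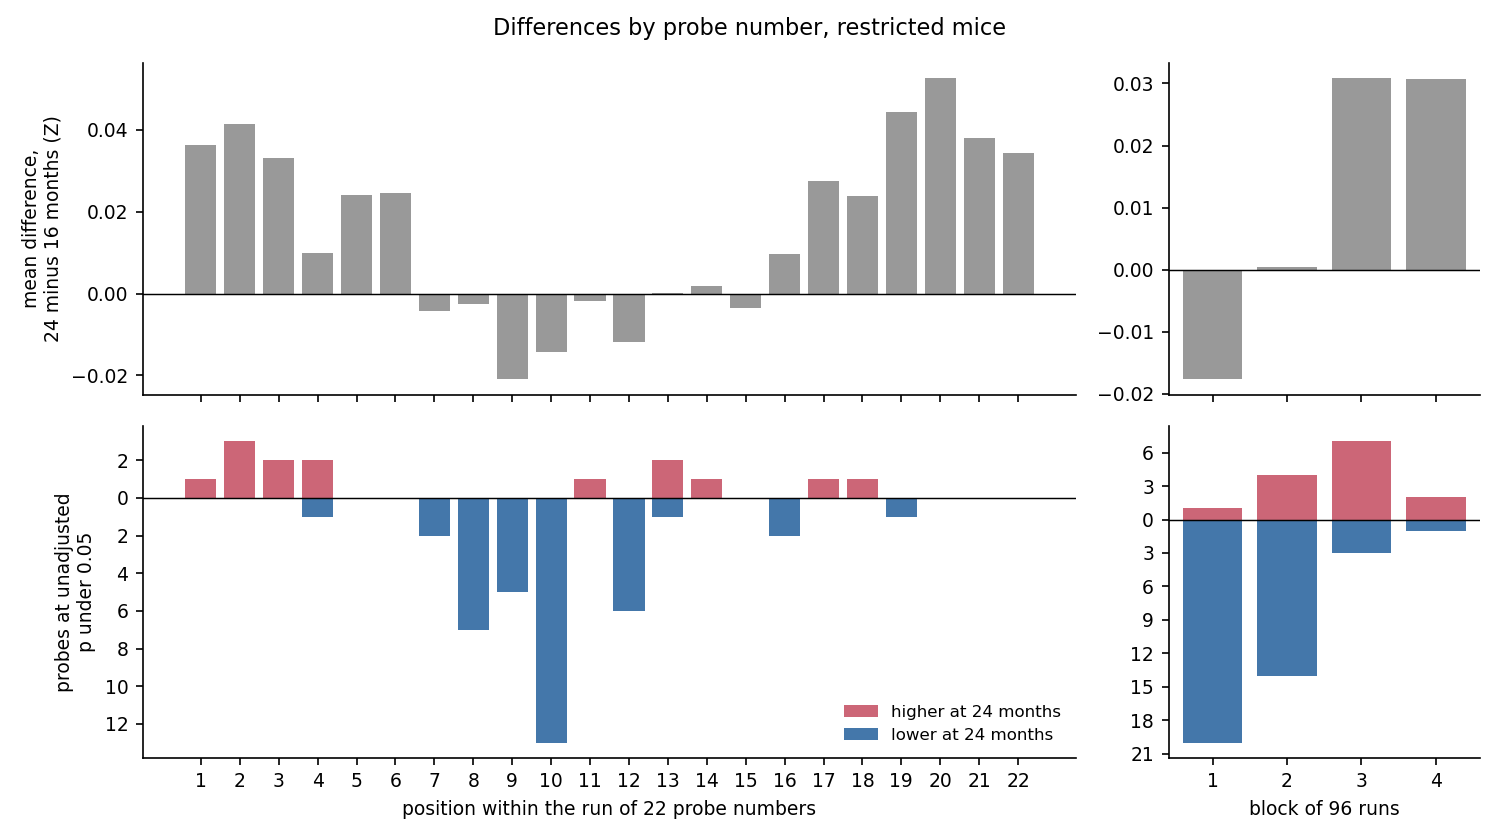
Mean difference between 24 and 16 months in Z units (upper panels) and number of probes at an unadjusted p under 0.05, higher above the line and lower below it (lower panels), by position within the run of 22 probe numbers and by block of 96 runs (x axes). The lower probes crowd at positions 8, 9, 10 and 12, with 13 at position 10, and in the first block, with 20.

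Gene groups were described by the sign and the median of their differences, beside 58.5% higher and a median of 0.0133 for all kept probes. No member of any of the 41 lists was called by limma. The lists with a sign of the median that held in all 25 settings tried were few, and of the 33 lists with 3 or more kept probes they numbered 11. Cytosolic ribosomal proteins, the structural parts of the ribosome, had 10 probes higher and 35 lower, a median of -0.0258, and a range of medians over the settings from -0.0433 to -0.0117. Rpl4 was the one member at an unadjusted p under 0.05, and Rps21 had the lowest value (-0.196, SE 0.136). The median was -0.0150 in females and -0.0358 in males, a difference that was not tested, and ad libitum mice, which share no animal with the restricted ones, had a median of -0.0340. The mitochondrial ribosome had a median of 0.0613 over 9 probes, 6 of them higher, with Mrpl45 (0.136, SE 0.0936) and Mrpl27 (0.117, SE 0.0761) at the top and Mrpl50 (-0.0979) at the bottom. Translation factors and tRNA synthetases had 10 higher and 15 lower (median -0.00375). The eIF2alpha kinase gene Eif2ak4, which senses a shortage of amino acids, was their one member at an unadjusted p under 0.05 (-0.113, unadjusted p = 0.0321).

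Energy metabolism, the processes on which restriction is known to act, showed small values. The respiratory chain and ATP synthase list had 8 probes higher and 14 lower and a median of -0.0223, and its members ran from Cox4i1 (-0.110, SE 0.0719) to Atp5g1 (0.142, SE 0.0868). Without the restricted mice of array set 5 that median was -0.000833. Glycolysis and the tricarboxylic acid cycle had 4 higher and 4 lower (median -0.0169), with Idh3g of the tricarboxylic acid cycle lowest (-0.0858). Lipid and sterol metabolism had 7 higher and 5 lower (median 0.0100), from the cholesterol transporter gene Abca1 (-0.111) to the acetyl-CoA synthetase gene Acss1 (0.0967). The nutrient-sensing list of insulin, mTOR, AMPK and sirtuin genes had 8 higher and 11 lower (median -0.00458). Its lowest member was Rps6, the ribosomal protein phosphorylated downstream of mTOR (-0.115, SE 0.0758), and its highest was the CREB coactivator gene Crtc3 (0.0767, SE 0.0586). Solute carriers had 14 probes each way (median -0.00125).

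**Figure D4:**
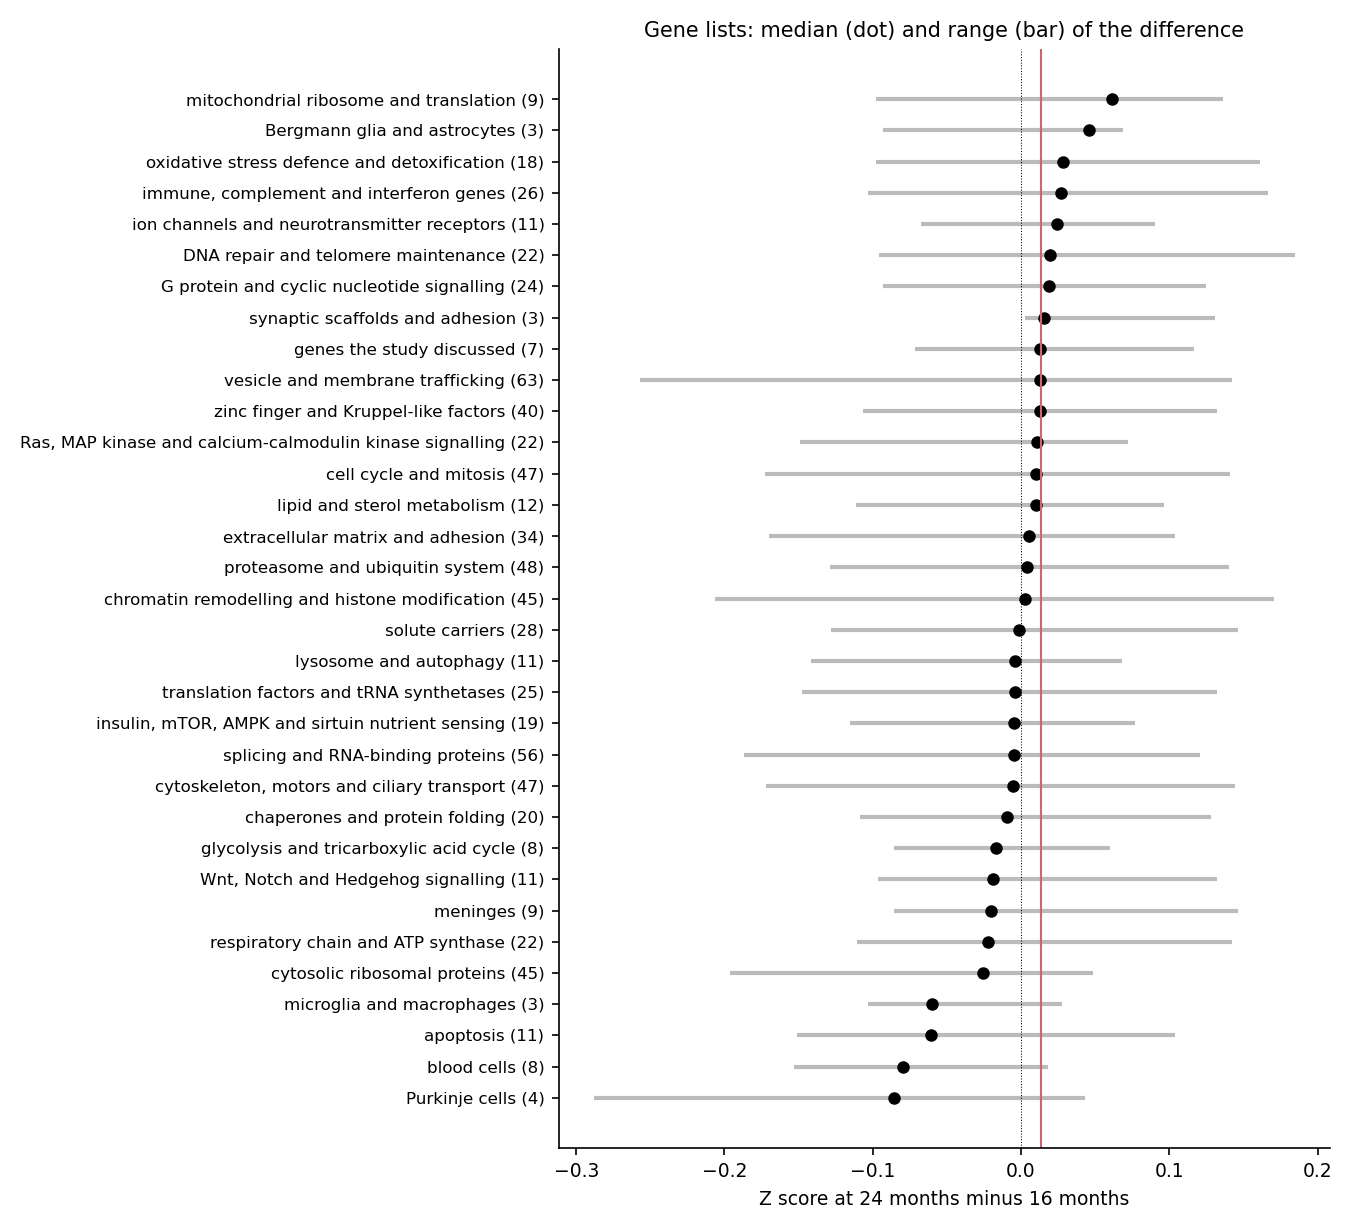
Median (dot) and range (grey bar) of the difference in Z score between 24 and 16 months (x axis) over the kept probes of each gene list with 3 or more of them (y axis, number of probes in parentheses). The red line marks the median of all kept probes, 0.0133, and the bar of every list with 4 or more probes crosses 0.

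Protein turnover and stress genes were also spread around 0. The proteasome and ubiquitin list had 25 higher and 23 lower (median 0.00417), chaperones had 8 and 12 (median -0.00917), and lysosome and autophagy genes had 5 and 6 (median -0.00375), with the autophagy gene Atg14 highest (0.0679). Oxidative stress defence had 11 higher and 7 lower (median 0.0283), led by the glutathione transferase gene Gsto1 (0.161, SE 0.0922, unadjusted p = 0.0865). The sign of that median held in all 25 settings, as did the positive sign of the median of all kept probes. DNA repair and telomere genes had 14 higher and 8 lower (median 0.0196), and apoptosis genes 5 and 6 (median -0.0604). The latter median was -0.00208 once the run means were removed from each array. Immune, complement and interferon genes had 20 probes higher and 6 lower, a median of 0.0269 that ranged from 0.0108 to 0.0542 over the settings, with Ifitm2 highest and the complement gene C1qb lowest (-0.103). The ad libitum median of that list was -0.0194, and the difference between the diets was not significant for Ifitm2 (unadjusted p = 0.288).

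Nuclear and signalling lists gave no clearer direction. Chromatin genes had 24 higher and 21 lower (median 0.00292), with the histone acetyltransferase gene Hat1 lowest at -0.207 (SE 0.124). That value rests on the middle-aged mice of array set 5, at 0.53 and 1.13, beside -0.06 to 0.22 in the other middle-aged mice and -0.05 to 0.27 in the old. The DNA-bending protein gene Hmgb2 had an unadjusted p of 0.0425 (-0.126). Splicing and RNA-binding proteins had 26 and 30 (median -0.00479), and zinc finger and Kruppel-like factors 23 and 17 (median 0.0125). G protein and cyclic nucleotide signalling had 13 and 11 (median 0.0188), Ras, MAP kinase and calmodulin kinase signalling 12 and 10 (median 0.0110), and Wnt, Notch and Hedgehog signalling 4 and 7 (median -0.0187). Extracellular matrix and adhesion had 18 and 16 (median 0.00563). Ion channels and receptors had 8 and 3 (median 0.0242), synaptic scaffolds 3 and 0 (median 0.0154), and the immediate early and circadian list was left with 2 probes, Fosl2 (-0.00417) and Atf4 (0.0117).

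Cell type markers were few on this filter, and none passed the test. Calb1, the calcium buffer that marks Purkinje cells, was held by 3 kept probes whose differences were -0.288 (SE 0.169), -0.168 (SE 0.154) and 0.0433 (SE 0.0645), so the probes of this gene did not go together. The first of them ranged from -1.02 to 0.27 in old mice and from -0.38 to 0.42 in middle-aged mice. Car8, another Purkinje gene, differed by -0.00375 (SE 0.0969), with means of 0.897 ± 0.0885 (SD, n = 7) and 0.898 ± 0.190 (SD, n = 8). Among glial markers, the glutamate transporter gene Slc1a3 of Bergmann glia differed by 0.0688, the intermediate filament gene Vim by 0.0458 and the gap junction gene Gja1 by -0.0933. The microglial genes C1qb, Fcer1g and C1qc differed by -0.103, -0.0600 and 0.0279. Kit of inhibitory interneurons (-0.0975), Pdgfrb of mural cells (0.0629) and Hoxb3 of the brainstem (-0.0175) were the single kept probes of their lists, and the 9 meningeal probes had a median of -0.0204. The choroid plexus list had no probe.

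Probes annotated to haemoglobin genes mostly had lower values in the old restricted mice, though none passed the adjustment. Most globin probes lay below the mean signal and were seen in the fit of all 8448 probes, in which limma called 0 probes and 222 (2.63%) had an unadjusted p under 0.05, 156 of them (1.85%) lower in old mice. Of 20 globin probes with 1 symbol, 18 were lower and 2 higher, where 48.5% of all probes were lower. Their median was -0.101 beside 0.00292 for all probes, and 6 had an unadjusted p under 0.05, all lower. The probes carried the names Hba-a1, Hba-a2, Hba-x and Hbb-y, and the 6 included an Hbb-y probe (-0.177, SE 0.0791). Several of these probes stand for the same gene, so they are not independent. The lowest were 1 probe of the alpha-globin gene Hba-a1 at -0.327 (SE 0.133) and 1 of Hba-a2 at -0.282 (SE 0.117), and the brightest, an Hba-a2 probe with means of 1.58 in middle-aged and 1.51 in old mice, differed by -0.0704 (SE 0.106). Alas2, which starts haem synthesis in erythroid cells, differed by -0.223 (SE 0.0932, unadjusted p = 0.0203), and the erythrocyte anion exchanger gene Slc4a1 by -0.0858 (SE 0.0681). Other blood cell probes did not all go the same way, with Car1 of erythrocytes at 0.0933, the neutrophil gene S100a9 at 0.0433 and 2 probes of the erythrocyte enzyme gene Bpgm at -0.141 and -0.0475. Dim marker probes of other cell types had lower values too, whereas all 4342 probes below the mean signal had a median of -0.0104. Of the 18 marker probes of other cell types that lay below the mean signal, 16 were lower in old mice, with a median of -0.0713, among them Acta2 of smooth muscle (-0.138), Car2 (-0.130), the astrocyte gene Sparcl1 (-0.111) and the meningeal gene Dcn (-0.158 and -0.0654). The globin genes were chosen for description after their values had been seen.

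Averaged over the 20 probes, the globin Z scores were -0.122, -0.139, -0.138 and 0.0170 in middle-aged females, -0.0615, -0.0550, 0.0420 and 0.0930 in middle-aged males, -0.271, -0.259, -0.0895 and -0.210 in old females, and -0.0905, -0.205 and -0.124 in old males. The ages overlapped, and the highest values belonged to middle-aged mice, 2 of the highest 3 being those of array set 5. Without array set 5 the median difference of the globin probes was -0.0750 with 18 of 20 lower, but 1 probe and not 6 had an unadjusted p under 0.05. With run and position means removed the median was -0.0884 with 18 of 20 lower, and 2 probes had such a p. At 6 months restricted mice had a mean of -0.120 ± 0.127 (SD, n = 9), between the middle-aged (-0.0453 ± 0.0879, n = 8) and the old (-0.178 ± 0.0766, n = 7), so the level did not run one way over the 3 ages. In ad libitum mice the mean was -0.0752 ± 0.101 in the 10 middle-aged and -0.158 ± 0.140 in the 9 old (SD), again with 18 of 20 probes lower, and no globin probe differed between the diets even at an unadjusted p under 0.05. How much blood each sample held was not tested.

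**Figure D5:**
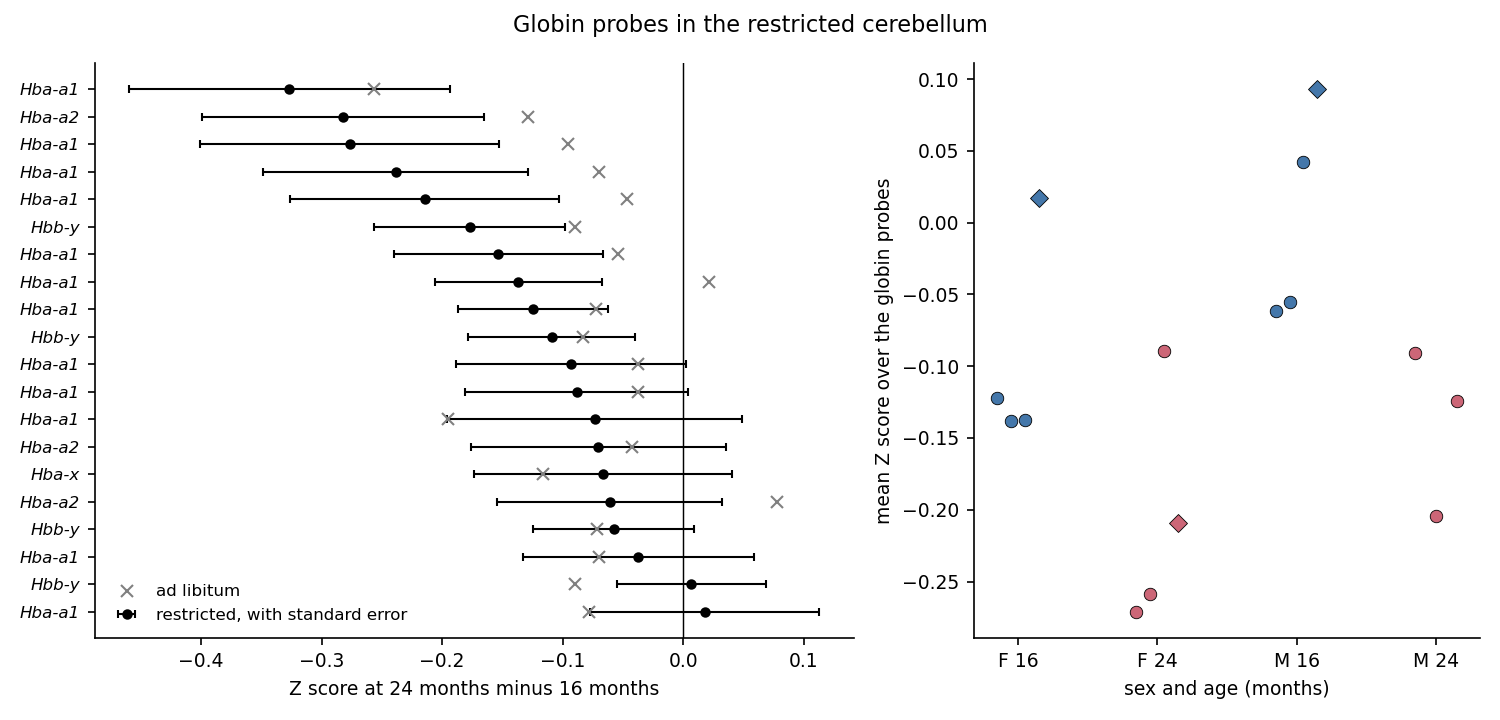
Left, difference in Z score between 24 and 16 months (x axis) for the 20 globin probes (y axis) in restricted mice, with the standard error, and in ad libitum mice. Right, the mean Z score over these probes in each restricted mouse (y axis) by sex and age in months (x axis), diamonds marking array set 5. Of the probes 18 are lower in old restricted mice, and mice of both ages share a range.

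Taken by sex, the comparison was no clearer. In females limma called 0 probes (0%), with 53 (1.29%) at an unadjusted p under 0.05, 25 higher and 28 lower. In males it called 0 (0%), with 17 (0.414%), 3 higher and 14 lower. The old males were 673 days old and the old females at least 703, so sex and the length of the age step cannot be told apart. The test of the difference between the sexes called 0 probes (0%), with 17 (0.414%) at an unadjusted p under 0.05. These counts rest on single mice: without the third old male the count was 6 in males, without the third and the fourth middle-aged male 47 and 68, and without the first old male 52. Without the fifth old female it was 17 in females, and without the fifth middle-aged female it was 111 in females and 82 for the difference between the sexes, which was 9 without the second or the third old male. Blocking on array set gave 64 probes in males, 56.3% of them higher, 84 in females and 99 for the difference between the sexes. For the difference between the sexes 4 genes were named in each direction. Dnaja1, a co-chaperone of Hsp70, had Z scores of 1.84, 1.72, 1.87 and 1.59 in middle-aged and 1.88, 1.96, 2.07 and 2.07 in old females, the lowest old female being just above the highest middle-aged one, and of 1.98, 1.75, 1.85 and 2.13 in middle-aged and 1.87, 1.76 and 1.78 in old males. Its difference was 0.240 in females and -0.124 in males (test of the difference, unadjusted p = 0.0237). Ptges3, the p23 co-chaperone of Hsp90, differed by 0.0600 in females and -0.203 in males (unadjusted p = 0.0280). The transcription repressor gene Drap1 differed by 0.178 and -0.198 (unadjusted p = 0.0263) and Itfg1 by 0.230 and -0.108 (unadjusted p = 0.0283). On the opposite side were the MHC class I gene H2-T10 (-0.120 in females and 0.172 in males), the acyl-CoA synthetase gene Acsl5 (-0.120 and 0.133), the pseudokinase gene Trib2 (-0.155 and 0.134) and Sephs1 (-0.175 and 0.173). The adjusted p of the difference between the sexes was 1.00 for each of these 8 genes.

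In females the smallest unadjusted p belonged to Cenpi (0.00689), followed among the named genes by Stag3 (0.00977), both described above. Arid4a, a chromatin protein that binds Rb, differed in females by 0.193 (unadjusted p = 0.0103), the cohesin gene Smc1a by 0.182 (unadjusted p = 0.0329) and the cell cycle repressor gene E2f6 by -0.225 (unadjusted p = 0.0114). In males the values were -0.0192, -0.0267 and -0.0292 for the same genes. Smaller male values were favoured by the choice on female values, and no test of the difference between the sexes is given for these genes. In males the named genes included several of the whole comparison, which contains the male difference, so such overlap was favoured. Ipp differed by 0.243 (unadjusted p = 0.0396), and Mad2l1bp, Tmpo and Rusf1 by -0.296, -0.295 and -0.276 (unadjusted p of 0.00617, 0.00945 and 0.00514). None passed the adjustment, and the difference between the sexes had an unadjusted p of 0.0880 for Mad2l1bp, 0.126 for Tmpo and 0.184 for Rusf1.

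Whether the step from 16 to 24 months differed by diet was asked against 19 ad libitum mice, 10 of 16 months and 9 of 24 months, of the same strain and fed freely throughout. Their own comparison called 0 probes (0%), with 106 (2.58%) at an unadjusted p under 0.05. The difference between the diets called 0 (0%), with 39 (0.950%), 18 above and 21 below. The count of 39 was 64 without the fifth middle-aged restricted male, and blocking on array set gave 171. Cnep1r1, a regulator of a lipin phosphatase, had means of 1.06 ± 0.110 (SD, n = 10) and 0.780 ± 0.184 (SD, n = 9) ad libitum, and of 0.905 ± 0.158 (SD, n = 8) and 0.971 ± 0.188 (SD, n = 7) under restriction. The difference between the diets was 0.360 (SE 0.127, unadjusted p = 0.00646). The glutathione transferase gene Gstm6 differed by -0.130 ad libitum and 0.104 under restriction (unadjusted p = 0.0159), and Arid4a by -0.0833 and 0.0867 (unadjusted p = 0.0205). In the other direction Spred1, an inhibitor of Ras signalling, differed by 0.133 ad libitum and -0.0933 under restriction (unadjusted p = 0.00754). Hsf2bp (0.0780 and -0.122), Dync1h1 (0.0357 and -0.160) and the kinetochore gene Cenpl (0.0597 and -0.109) followed. The adjusted p was 1.00 for all of these.

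The 12 genes named as lower under restriction were near 0 in ad libitum mice, with 7 negative and 5 positive and none at an unadjusted p under 0.05. The 12 named as higher had 9 positive and 3 negative ad libitum values. Since these genes were picked for their difference under restriction, a smaller value ad libitum was favoured by the choice. The difference between the diets had an unadjusted p under 0.05 for 3 of the lower genes (Dync1h1, Tmpo and Wdr35) and for 0 of the higher genes. Over all kept probes the share was 0.950%. That test contains the restricted difference by which the genes were picked, so a small p was favoured by the choice as well.

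The list drawn up for genes that the study singled out had 11 probes on this filter, of which 7 were bright enough to test and none passed. The telomere-binding protein gene Terf1 had Z scores of 0.99 to 1.91 (median 1.57) in middle-aged and 1.57 to 1.88 (median 1.68) in old mice, a difference of 0.117 (SE 0.0769). The Werner helicase gene Wrn ranged from 0.11 to 0.28 and from 0.20 to 0.28, a difference of 0.0633 (SE 0.0505). The others were Vim at 0.0458, the calmodulin kinase gene Camk2d at 0.0125, the chaperone gene Hsp90aa1 at -0.0129 and Ptges3 at -0.0712. The list also held the chromatin remodelling ATPase gene Smarca4 at 0.0129, which the study's text does not name. The 95% interval of Wrn ran from -0.0379 to 0.165. Some of these genes were chosen by the study on these same mice, so they are not an independent set.

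No greater distance between the mice of a group was found in old age. The root mean square distance of a mouse from the mean of its sex and age was 0.137 ± 0.0405 Z (SD, n = 7) in old and 0.194 ± 0.0755 Z (SD, n = 8) in middle-aged mice, a difference of -0.0564 that was not significant (two-sided exact permutation test within sex over 2450 arrangements, p = 0.249). The 2 middle-aged mice of array set 5 had the largest distances, 0.279 in the female and 0.332 in the male. Without the restricted mice of that set the difference turned to 0.00270. The 3 arrays left out for low correlation, more of them middle-aged than old, had been removed beforehand, which trims the spread tested here. With these 3 arrays kept the difference was -0.189 (same permutation test, p = 0.309).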

How the data were processed

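Total RNA of each cerebellum was copied into radiolabelled cDNA and hybridized to nylon filters, of which 1 per mouse is covered here. Spots were quantified by the authors with ArrayPro. The deposited values are scores, namely Z scores that the authors computed per array. The log transform and the background treatment are not given in the sources used here. Values had 2 decimals and 0 were missing. A shift of all probes together cannot be seen, and only the number of arrays describes the precision.

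The members and gene lists were chosen with earlier results of these data known. Kept were the probes whose Z scores averaged above 0 over 63 arrays. One mean per sex, age and diet was fitted with limma 3.58.1 in R 4.3.3 (47 residual degrees of freedom), sexes weighted equally, with Benjamini-Hochberg adjustment over all kept probes and two-sided tests. The scripts were tested on simulated data. Symbols came from the platform annotation (4875 probes with 1 symbol, 224 with several, 3349 with none), and 4861 matched a mouse gene table by gene ID. Named were, among probes with 1 proper symbol, the 12 with the smallest p in each direction. So were 4 per direction for each sex and for the sex and diet differences. Named too were the 3 smallest p of each list and the 3 brightest markers. The list drawn up for genes the study discussed and the probes meeting the study's criteria completed the choice. One gene of the diet difference is not reported here. Alternatives were other filters, normalization, array weights, the array set as a block, removal of run and position means, and leaving out single mice. Array sets are 5 runs of array numbers, and what each set shares in handling was not stated.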

Additional observations from a re-analysis of the deposited data

Results flagged for a closer look

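In groups of 4 mice, the highest or the lowest value was set against the others by Dixon's test at the 95% level, for 78 groups of values. By chance alone about 1 in 20 groups is picked out, and 6 were found. The fifth middle-aged female and the fifth middle-aged male, both of array set 5, accounted for 5 of them. Their median correlations with the other arrays were 0.922 and 0.933, whereas those of the other mice in their groups were 0.971 to 0.975 and 0.970 to 0.974. In Mad2l1bp they had Z scores of 1.00 and 1.03, against 0.63 to 0.65 in the other females and 0.69 to 0.73 in the other males. In Stag3 the female had 1.84 and the others 0.19 to 0.31. The sixth was the first old female in Rusf1, at 0.07 beside 0.28 to 0.31 in the other 3. The part of array set 5 in these values was not tested.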

How the results depend on the processing

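Limma called 0 probes in the 6 comparisons under the alternatives run for each. The lowest adjusted p was 0.0517, for the difference between the diets with array weights (338 probes at an unadjusted p under 0.05). No paired analysis was possible because the labels give no replicate numbers. The nearest fit had the array set, with about 1 mouse per group, as a block, and 92 probes had an unadjusted p under 0.05 for the age difference, against 52. That count was 604 with array weights (smallest adjusted p 0.261), 399 with the 3 poorly correlated arrays kept (77.9% of them higher in old mice), 222 with no filter and 27 to 109 when single mice were left out (lowest without the second old male, highest without the fourth old female). The probes meeting the criteria of the study numbered 231 with the 3 arrays kept, 19 with run means removed, 22 without the restricted mice of array set 5, 13 at a Z-ratio of 2 and 23 to 81 when single mice were left out. The probes without overlap between the ages numbered 1 with no filter, 3 without array set 5, and 0 to 1 when single mice were left out (1 without the fourth middle-aged male or the fourth old female). The difference in spread turned to 0.00270 without array set 5. With the 3 arrays kept, 4 named genes changed sign: Cenpi (0.382), Dync1h1 (0.413), Plcg2 (0.0877) and Wdr35 (0.570). The other 20 of the 24 kept theirs in all settings. Most settings left out a single mouse, and the genes were picked for their difference, so a kept sign was favoured. The size held less well. With run and position means removed, Rusf1 went from -0.189 to -0.0759, Frg1 from -0.173 to -0.0503 and Tmpo from -0.179 to -0.0870. Exoc8 went from -0.257 to -0.200. Leaving out array set 5 and removing run and position means together were chosen after seeing the data. The cause of these changes was not tested. The precision is set by the 15 mice, with a median half-width of 0.168 Z for the 95% interval of a probe.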
